A study of Caenorhabditis elegans with 6 samples.

Results

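The proteasome is the protease that degrades proteins marked with ubiquitin, and this account follows the transcripts of its subunits in whole worms exposed to diquat. Members were the rows of the deposited table whose gene symbol is pas, pbs, rpt or rpn followed by a number, which gave 34 of 20473 rows. Of the 34, 33 carry a WormBase identifier and 1 is a locus assembled from the reads that the table labels rpt-6. They were sorted into the alpha ring (7 pas genes), the beta ring (7 pbs genes), the ATPase ring (6 rpt genes and the assembled locus), the non-ATPase base (4 rpn genes) and the lid (9 rpn genes).

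The libraries were made from mRNA of whole Caenorhabditis elegans of N2, the wild-type strain. In the diquat group the worms were kept for 72 h at 20 °C with 100 µg/L of DQ (diquat) dibromide monohydrate, and in the control group with 0 µg/L under the same conditions. Diquat is a herbicide that generates reactive oxygen species by redox cycling. There were 3 libraries per group, carrying the numbers 1 to 3. Whether they represent independent cultures is not stated, and the p-values therefore describe the spread among these particular libraries, part or all of which may be technical. The sources used here give neither the age of the worms nor the number of animals per library. In RNA from whole animals, fewer cells of a type and less RNA per cell cannot be told apart.

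The core particle of the proteasome is a barrel of stacked rings, with alpha rings outside and beta rings inside, and the beta rings hold the proteolytic sites. The regulatory particle caps the barrel: its base has a ring of ATPases that unfold substrates, and its lid removes the ubiquitin chain. Subunits assemble in fixed proportions. In C. elegans, loss of proteasome function is known to raise the transcription of subunit genes through SKN-1A, a form of the transcription factor SKN-1.

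The total count was 23390547 to 23569605 per diquat library and 23589685 to 24593469 per control library, and the 34 members took 0.648% to 0.715% of a library's counts. The worms held RNA of the main tissues: of 7 marker lists of 6 genes, for sperm, germline, oocyte and embryo, intestine, body wall muscle, neurons and epidermis, every gene was above 0 counts in every library. The sperm list stood apart between groups. Its 6 genes all fell in the edgeR test (5 of the 6 with the length trend removed), and their summed level was 17.5, 21.7 and 14.2 CPM (counts scaled to library size with TMM factors) in the diquat libraries and 41.8, 48.7 and 46.7 CPM in the control libraries. The other 6 marker lists had no member past the test, with list medians between -0.15 and 0.00 on the log2 scale.

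No proteasome subunit passed the test between diquat and control worms. In the quasi-likelihood test of edgeR, with p-values adjusted by Benjamini-Hochberg over 13252 genes, 0 of the 34 members were called higher, where 0.0% of all tested genes were, and 0 were called lower, where 0.913% were. The lowest unadjusted p among the members was 0.262, and the lowest adjusted p was 0.825, both of the assembled locus. Among the members with a WormBase identifier the lowest were 0.425 unadjusted and 0.878 adjusted (pbs-5). DESeq2 and limma-voom also called 0. The members' median log2 fold change was -0.05, beside 0.01 over all tested genes, and 29 of the 34 values were negative. Without diquat 3 the median was 0.0030 and 16 values were negative. In the authors' deposited table the lowest FDR among the members was 0.998, so that 0 were under 0.05, and 22 of the 34 log2 ratios were negative. The deposited p-values of the members match those of DESeq2 here, so they are not a separate test.

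The width of the intervals depended on the fit. Leaving aside the assembled locus and rpn-6.2, which were of low abundance, the 32 remaining members had counts of 1713 to 13792 per library. Their log2 fold changes lay between -0.10 and 0.07 with standard errors of 0.10 to 0.14. The outermost bounds of their 95% intervals were -0.39 and 0.29, equal to 0.763-fold and 1.23-fold of the control level. With the replicate number as a block in the edgeR fit these outermost bounds were -0.23 and 0.19, and without the block but with each library's trend over exon length removed they were -0.53 (rpn-1) and 0.34 (pas-4 and pbs-7). The blocked fit called 0 members higher and 0 lower, where it called 4.51% of all tested genes higher and 4.0% lower, and the lowest adjusted p among the members was 0.312.

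**Figure D1:**
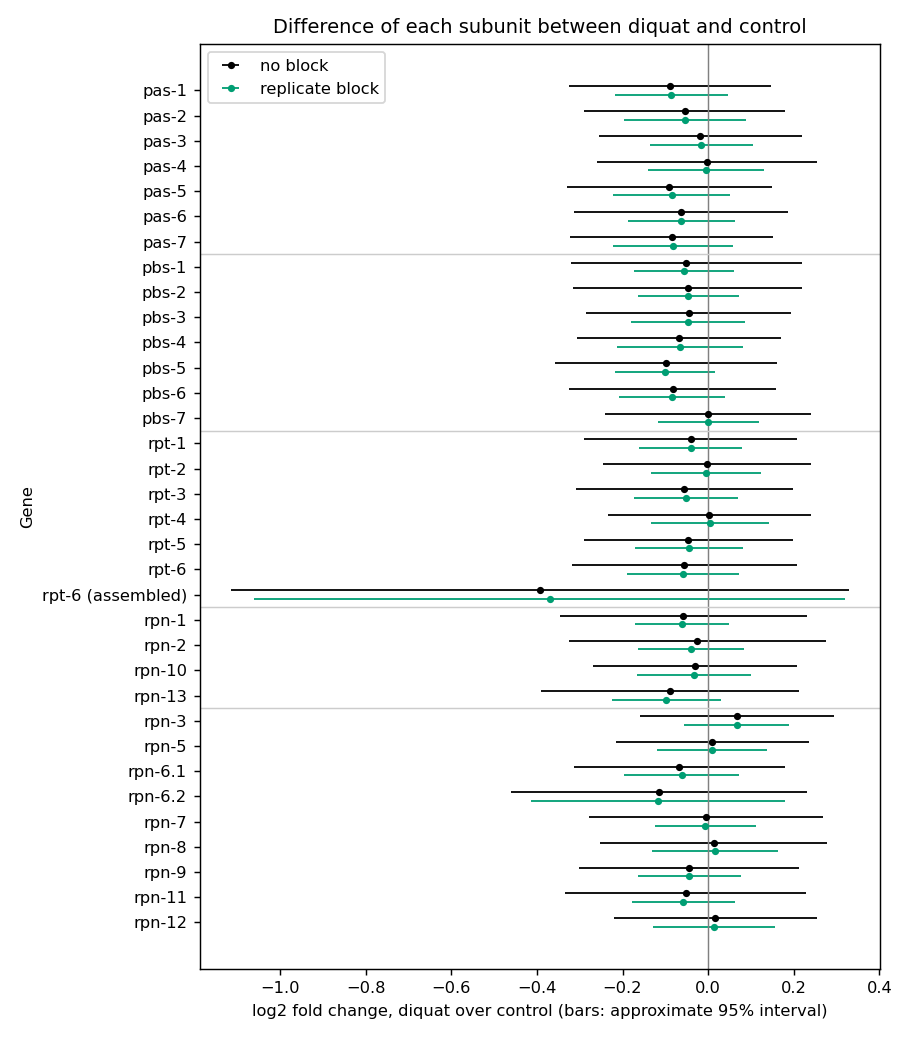
Log2 fold change of each of the 34 members, diquat over control, with approximate 95% intervals, from the edgeR fit without the block (black) and with the replicate number as a block (green). Every interval spans 0; the widest is that of the assembled rpt-6 locus, from -1.12 to 0.33 without the block.

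Levels are compared between genes as FPKM, the authors' value normalised for gene length and library size, since longer genes collect more reads. The alpha ring guards the entrance of the barrel. Its most abundant transcript was pas-3 (chromosome I, 5105110 to 5106048, WBcel235), at 311, 274 and 307 FPKM in the diquat libraries and 298, 291 and 285 FPKM in the control libraries. The groups overlapped, with diquat 2 the lowest of the 6 libraries in FPKM. FPKM carries no TMM factor, so ranks of libraries given with FPKM values here and below need not hold in CPM. In CPM control 3 was the lowest library for pas-3, at 258.3, with diquat 2 at 280.3. The log2 fold change of pas-3 was -0.02 (95% interval -0.26 to 0.22, edgeR adjusted p = 0.978).

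The other alpha subunits lay lower and close together. pas-7 (chromosome II, 10098782 to 10099854), the lowest, had 129, 107 and 126 FPKM in the diquat libraries and 129.7, 123.5 and 119.6 FPKM in the control libraries. pas-5 (chromosome I, 10566350 to 10567300) had 199, 174 and 208 FPKM with diquat and 205, 205 and 189 FPKM in control, with diquat libraries on both sides of the control libraries. pas-1 (chromosome V, 14421566 to 14422618) had 171, 152 and 173 FPKM with diquat and 182, 169 and 162 FPKM in control. In pas-1 control 1 was the highest and diquat 2 the lowest library. The remaining alpha genes averaged 130.1 ± 16.4 FPKM (pas-2), 146.2 ± 15.5 FPKM (pas-4) and 196.5 ± 12.8 FPKM (pas-6) with diquat and 131.1 ± 4.54 FPKM (pas-2), 142.4 ± 7.66 FPKM (pas-4) and 199.8 ± 16.7 FPKM (pas-6) in control (SD, n = 3 in each group). All 7 alpha genes had groups that overlapped. Their log2 fold changes ran from -0.09 (pas-5) to -0.0035 (pas-4), and their median was -0.06.

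In the beta ring, pbs-1, pbs-2 and pbs-5 correspond to the subunits that carry the caspase-like, trypsin-like and chymotrypsin-like activities in other animals. pbs-1 (chromosome IV, 1708814 to 1709745) was the most abundant of all members, at 398, 403 and 363 FPKM in the diquat libraries and 402, 395 and 380.1 FPKM in the control libraries. pbs-2 (chromosome I, 12967216 to 12968280) had 271, 289 and 279 FPKM with diquat and 273, 299 and 272 FPKM in control. For pbs-1 the diquat libraries held both the highest and the lowest of the 6 values, and for pbs-2 diquat 1 was the lowest and control 2 the highest, so the groups of both genes overlapped.

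pbs-5 (chromosome I, 14719167 to 14720477), the chymotrypsin-like subunit, had the most negative log2 fold change of the 32 abundant members. Its level was 289.6, 274 and 264 FPKM in the diquat libraries and 300.4, 288 and 275 FPKM in the control libraries. Diquat 3 was the lowest library and control 1 the highest, and each diquat library lay below the control library of the same number, but the groups overlapped. The log2 fold change was -0.10 (standard error 0.12, 95% interval -0.36 to 0.16, edgeR adjusted p = 0.878; 0.312 with the block). With the length trend of each library removed it was -0.03.

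The 4 remaining beta genes ranged from pbs-4 (chromosome I, 3908747 to 3909701) to pbs-7 (chromosome I, 8695205 to 8696301). pbs-4 had 137, 111 and 136 FPKM with diquat and 133, 131 and 126 FPKM in control, and pbs-7 had 319, 286 and 305 FPKM with diquat and 308, 292 and 286 FPKM in control. pbs-3 and pbs-6 lay between them, with means of 160.8 ± 15.9 FPKM (pbs-3) and 233.6 ± 8.59 FPKM (pbs-6) with diquat and 161.3 ± 8.42 FPKM (pbs-3) and 241.0 ± 10.48 FPKM (pbs-6) in control (SD, n = 3 in each group). All 7 beta genes had groups that overlapped. The 3 catalytic genes averaged 1.46 to 1.67 times the FPKM of the other beta genes in the diquat libraries and 1.51 to 1.61 times in the control libraries. Diquat 2 was the lowest library for pbs-4, as it was for pas-2 and rpt-4.

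**Figure D2:**
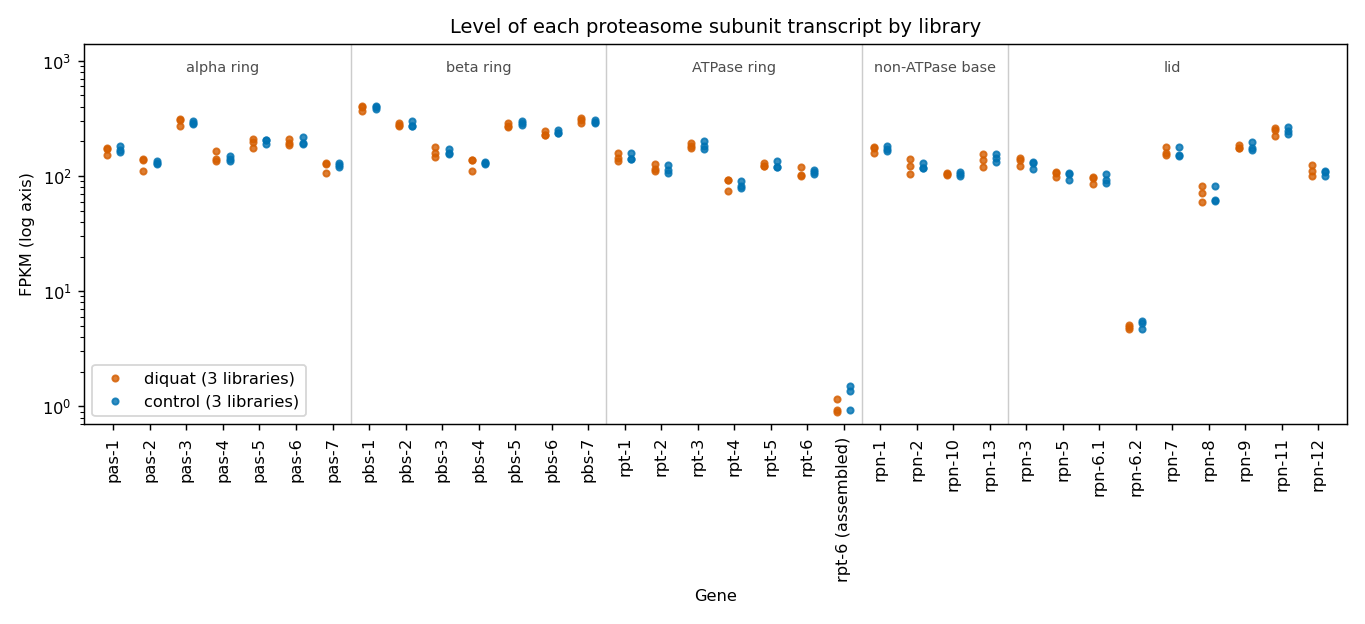
FPKM (log axis) of each member in the 3 diquat (orange) and 3 control (blue) libraries, ordered by position in the particle. The 32 abundant members lie between 59.1 and 403 FPKM, with rpn-6.2 at 4.73 to 5.52 and the assembled rpt-6 locus at 0.900 to 1.49 FPKM.

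The ATPase ring pulls substrates into the barrel. Its 6 annotated genes had mean levels from rpt-4 (chromosome II, 42207 to 46216) to rpt-3 (chromosome III, 6489793 to 6491282). rpt-4 was at 92.7, 73.6 and 93.0 FPKM in the diquat libraries and 91.4, 79.0 and 81.4 FPKM in the control libraries. rpt-3 was at 192, 173 and 183 FPKM with diquat and 202, 182 and 171 FPKM in control. In both genes the groups overlapped. rpt-1 (chromosome V, 11980534 to 11982397) had 159, 136 and 143 FPKM with diquat and 157, 141 and 139.96 FPKM in control, highest in library 1 of each group. rpt-5 and rpt-6 averaged 124.3 ± 4.49 FPKM (rpt-5) and 107.2 ± 9.94 FPKM (rpt-6) with diquat and 125.1 ± 9.43 FPKM (rpt-5) and 108.5 ± 5.14 FPKM (rpt-6) in control (SD, n = 3 in each group). Log2 fold changes of the 6 annotated genes lay between -0.06 (rpt-3 and rpt-6) and 0.0029 (rpt-4).

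The non-ATPase base comprises the scaffold subunits rpn-1 and rpn-2 and the ubiquitin receptors rpn-10 and rpn-13. rpn-1 (chromosome IV, 6906420 to 6909913) had 177, 176 and 158 FPKM in the diquat libraries and 171, 182 and 166 FPKM in the control libraries. rpn-10 (chromosome I, 10730712 to 10732424) was the steadiest of the 4, with a mean of 104.7 ± 2.23 FPKM with diquat and 104.3 ± 4.62 FPKM in control (SD, n = 3 in each group). Neither gene separated the groups.

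rpn-2 (chromosome III, 6199184 to 6202594) and rpn-13 (chromosome III, 6340113 to 6341928) had the largest residual SD of the abundant members on the log2 CPM scale. rpn-2 had 140.1, 121 and 105 FPKM in the diquat libraries and 129.8, 117 and 117 FPKM in the control libraries. rpn-13 had 157, 138 and 120.3 FPKM with diquat and 156, 142 and 132 FPKM in control. In both, diquat 1 was the highest and diquat 3 the lowest of the 6 libraries in FPKM. In CPM control 1 was the highest library for rpn-13. That residual SD was 0.21 for rpn-2 and 0.22 for rpn-13, beside a median of 0.12 over the 34 members and 0.21 over all tested genes.

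The lid held the members with the highest log2 fold change and the most uneven levels. rpn-11 (chromosome II, 4043055 to 4044546), the deubiquitinase of the lid, was its most abundant transcript, at 261, 252 and 223 FPKM in the diquat libraries and 266, 246 and 232 FPKM in the control libraries. rpn-3 (chromosome III, 8447353 to 8449346), a scaffold subunit of the lid, had 143, 121 and 139 FPKM with diquat and 132, 114 and 129 FPKM in control. Each diquat library of rpn-3 lay above the control library of the same number, but the groups overlapped. Its log2 fold change was 0.07 (standard error 0.11, 95% interval -0.16 to 0.29, edgeR adjusted p = 0.908; 0.558 with the block).

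The other scaffold subunits of the lid, rpn-5, rpn-7, rpn-9 and rpn-12, had log2 fold changes of 0.0099, -0.0053, -0.05 and 0.02. rpn-7 (chromosome IV, 9316631 to 9318632) had 179, 158 and 154 FPKM in the diquat libraries and 180.3, 149.6 and 151 FPKM in the control libraries. rpn-12 (chromosome II, 11653124 to 11654192) had 124, 99.5 and 111 FPKM with diquat and 112, 101 and 109 FPKM in control. Library 1 was the highest of each group in both genes. rpn-5 and rpn-9 averaged 104.2 ± 5.64 FPKM (rpn-5) and 177.2 ± 6.63 FPKM (rpn-9) with diquat and 100.8 ± 7.40 FPKM (rpn-5) and 179.2 ± 14.3 FPKM (rpn-9) in control (SD, n = 3 in each group).

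rpn-6.1 (chromosome III, 6959110 to 6962001) encodes a lid subunit whose raised expression is known to increase proteasome activity and stress resistance in C. elegans. It was at 98.5, 85.2 and 96.6 FPKM in the diquat libraries and 105, 92.0 and 87.8 FPKM in the control libraries, so that diquat 2 was the lowest and control 1 the highest. Its log2 fold change was -0.07 (95% interval -0.31 to 0.18, edgeR adjusted p = 0.914). Its paralog rpn-6.2 (chromosome III, 8999817 to 9001999) was 15.9 to 19.9 times lower in FPKM within a library. rpn-6.2 had 177, 169 and 174 counts in the diquat libraries and 197, 171 and 194 counts in the control libraries.

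rpn-6.2 was the 1 member of 34 (2.94%) whose groups did not overlap in CPM, where 10.7% of all tested genes had groups that did not overlap. It had 7.42, 7.71 and 6.75 CPM in the diquat libraries and 7.998, 7.80 and 7.89 CPM in the control libraries, and on the FPKM scale the groups overlapped. Its log2 fold change was -0.12 (95% interval -0.46 to 0.23, edgeR adjusted p = 0.897).

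rpn-8 (chromosome I, 4175319 to 4177271), the partner of rpn-11 in the lid, was the least abundant of the 32 members and followed a course of its own across libraries. It had 70.6, 59.1 and 82.5 FPKM in the diquat libraries and 62.0, 60.1 and 82.2 FPKM in the control libraries. Library 3 was the highest in both groups. On the log2 CPM scale, library 3 exceeded the mean of libraries 1 and 2 by 0.19 in the diquat group and 0.31 in the control group. In all 31 other abundant members that difference was negative in both groups, from -0.48 to -0.0021 with diquat and from -0.29 to -0.04 in control. An excess in library 3 at least as large in both groups was seen in 18.6% of all tested genes. Between the groups the log2 fold change of rpn-8 was 0.01 (95% interval -0.25 to 0.28, edgeR adjusted p = 0.988). Its exons overlap no other annotated gene.

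**Figure D3:**
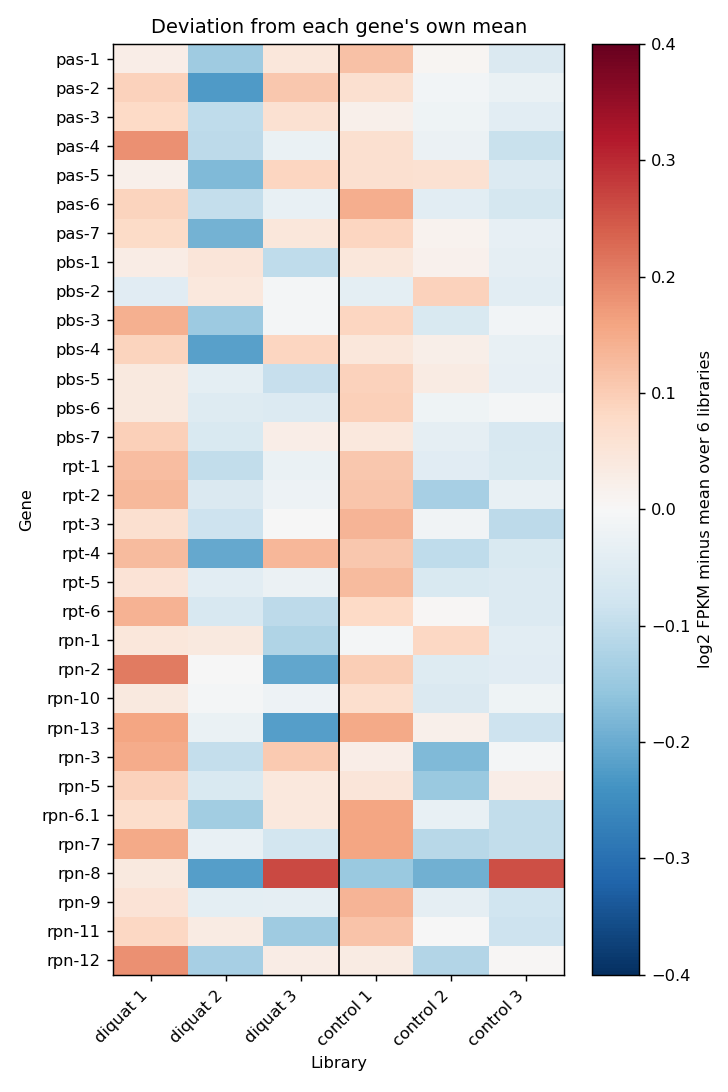
Log2 FPKM of each of the 32 abundant members in each library minus that gene's own mean over the 6 libraries; red is above the mean and blue below. Most genes are above their mean in diquat 1 and control 1, and rpn-8 stands out at 0.26 in diquat 3 and in control 3.

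On the FPKM scale, which carries no TMM factor, most subunits shared their course across libraries. The TMM factors ran from 0.919 (control 2) to 1.09 (diquat 3), so the course differs in CPM. There library 3 lay below the mean of libraries 1 and 2 in both groups for the 31 abundant members other than rpn-8. The counts that follow were not made over all genes, so a course particular to the subunits is not shown. Of the 32 abundant members, 31 were above their own mean log2 FPKM in diquat 1 and 29 in control 1, while 4 were above it in diquat 2, 13 in diquat 3, 10 in control 2 and 3 in control 3. Other than rpn-8, these deviations stayed between -0.23 and 0.21. The order of the levels hardly moved: across the 34 members the Spearman correlation of FPKM between any pair of libraries was 0.959 to 0.993, a description over genes of shared libraries.

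Summed over the 33 annotated genes, the level was 5733, 5184 and 5359 FPKM in the diquat libraries and 5714, 5353 and 5261 FPKM in the control libraries. Diquat 1 and control 1 were the highest of their groups, and the groups overlapped. The sum with diquat was 1.00 times that in control for libraries numbered 1, 0.969 times for number 2 and 1.02 times for number 3. By part, the ratio of the group means of the sums was 0.993 for the alpha ring, 0.989 for the beta ring, 1.00 for the ATPase ring, 0.988 for the non-ATPase base and 1.02 for the lid. The annotated ATPase ring summed to 764.6 ± 50.2 FPKM with diquat and 763.3 ± 53.8 FPKM in control, and the lid to 1105 ± 63.6 FPKM with diquat and 1088 ± 67.2 FPKM in control (mean ± SD, n = 3 in each group). In each of the 5 parts the difference between group means was smaller than the SD of either group.

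**Figure D4:**
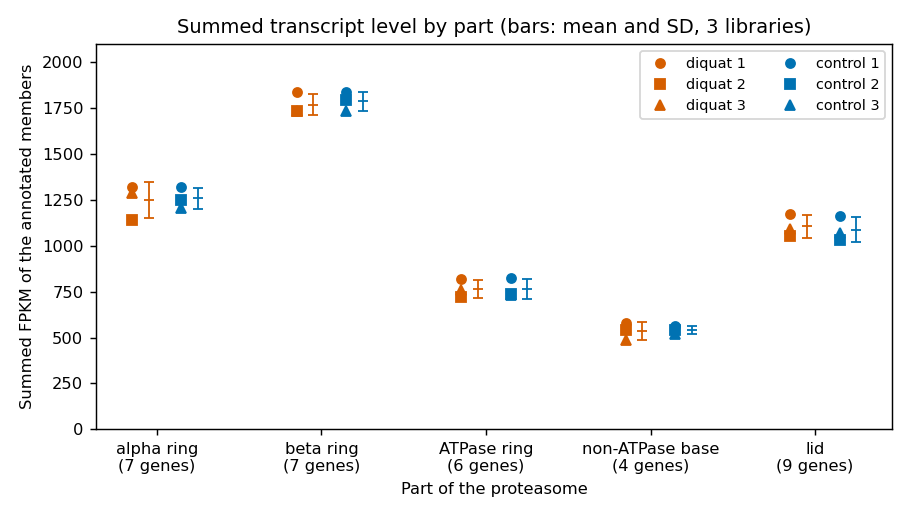
Summed FPKM of the annotated members of each part in each diquat (orange) and control (blue) library, with the symbol giving the library number and the bar the mean and SD of 3 libraries. In each part the points of the groups overlap; the beta ring lies between 1735 and 1839 FPKM.

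Transcript levels were not equal between subunits that assemble in fixed proportions. The highest member exceeded the lowest 2.40 times in the alpha ring, 3.03 times in the beta ring, 2.16 times in the annotated ATPase ring and 1.64 times in the non-ATPase base. In the lid without rpn-6.2 it did so 3.55 times, between rpn-11 and rpn-8. An average core particle gene exceeded an average regulatory particle gene, rpn-6.2 left out, 1.58, 1.61 and 1.67 times in the diquat libraries and 1.59, 1.70 and 1.64 times in the control libraries. An average beta gene exceeded an average alpha gene 1.39, 1.53 and 1.35 times with diquat and 1.39, 1.43 and 1.44 times in control. Neither ratio separated the groups.

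The exons of core particle genes add up to a median of 880.5 nucleotides, against 1493 for the annotated regulatory particle genes and 1416 for all tested genes. In the core particle all 14 log2 fold changes were negative (median -0.06), values that come from the same 6 libraries. With scaling to library totals alone pas-3, pas-4 and pbs-7 were positive, at 0.02, 0.04 and 0.04, and the other core genes negative. With each library's length trend removed 5 of the 14 were negative and the median was 0.02. The annotated regulatory particle genes had a median of -0.04 without that correction and -0.05 with it. The non-ATPase base moved more, with a median of -0.04 without the correction and -0.11 with it. There the log2 fold change of rpn-1 was -0.06 without it and -0.15 with it, and that of rpn-2 was -0.03 without it and -0.12 with it. With both the block and the correction, rpn-1 had an unadjusted p of 0.00862 (edgeR adjusted p = 0.0724) and rpn-2 an unadjusted p of 0.0253 (edgeR adjusted p = 0.141). They were the 2 members of 34 under an unadjusted 0.05 in that fit. Of all tested genes, that fit put 4.7% (higher) and 5.21% (lower) past even the adjusted threshold, so the 2 do not stand out. No member passed the adjusted test in any of these fits.

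The 33 annotated members lie on chromosomes I (10 genes), II (7), III (8), IV (3) and V (5). None lies on the X chromosome, which holds 14.7% of the tested genes. In 11 of the 33 the exons overlap those of another annotated gene, antisense in 10, and in 2 of them, rpn-7 and rpn-9, over more than 10% of the exon length. The sources used here do not state whether counting used strand, so reads of those overlaps cannot be assigned with certainty.

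The assembled locus labelled rpt-6 has no position in the annotation used here. It had 28, 22 and 23 counts in the diquat libraries and 35, 37 and 23 counts in the control libraries, about 0.900 to 1.49 FPKM. The gene rpt-6 itself (chromosome III, 12370456 to 12372607) was 72.5 to 114.5 times higher per library. The log2 fold change of the assembled locus was -0.39, with an interval from -1.12 to 0.33 (edgeR adjusted p = 0.825). How reads shared by the locus and by other rpt genes were divided is not known.

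The deposited annotation puts 44 genes in its proteasome pathway term, the 34 members and 10 genes outside the naming rule. Of these, dss-1, a small lid subunit, was at 112, 102 and 121 FPKM in the diquat libraries and 128, 114 and 112 FPKM in the control libraries (log2 fold change -0.13, edgeR adjusted p = 0.821). Y66D12A.9 had 77.3 ± 4.99 FPKM with diquat and 75.8 ± 3.40 FPKM in control (SD, n = 3 in each group; edgeR adjusted p = 0.982). The AAA-domain gene F56F11.4, which the table gives the same orthology number as rpt-6, had 49.1, 51.2 and 43.2 FPKM with diquat and 52.4, 42.2 and 40.4 FPKM in control (edgeR adjusted p = 0.959). These 3 genes, like 33 of the 34 subunits, had groups that overlapped. D1054.3 and C14C10.5 had log2 fold changes of 0.16 and 0.15 and passed no test, and T28B8.3 and T28B8.4 had at most 9 counts per library.

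Apart from dss-1, which stood on a list of related genes, the 10 genes were taken up after the values were seen. C10G11.8 was the 1 gene of the 10 that passed the test. It lies on chromosome I at 6271866 to 6273785, encodes an AAA-domain protein and shares its orthology number in the table with rpt-2. It had 18, 6 and 18 counts in the diquat libraries and 54, 52 and 49 counts in the control libraries. Every diquat library was below every control library. C10G11.8 fell by 1.90 on the log2 scale (standard error 0.36, 95% interval -2.67 to -1.12, edgeR adjusted p = 0.0244; 0.000531 with the block), while rpt-2 (chromosome V, 6016059 to 6017669) was at 127, 112 and 114 FPKM with diquat and 125, 106 and 114 FPKM in control.

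Few reads carry that call. It was also made with DESeq2 (adjusted p = 0.00299) and limma-voom (adjusted p = 0.027). So it was in edgeR without the count filter (adjusted p = 0.00286) and with the length trend removed (adjusted p = 0.0266). The edgeR adjusted p was 0.11 without diquat 1, 0.0509 without diquat 2, 0.0861 without control 1, 0.127 without control 2 and 0.0752 without control 3. With scaling to library totals alone it was 0.0856. The log2 fold change stayed between -2.11 and -1.58 with any 1 library left out. Fits with 1 library left out also called fewer of all genes lower, and why the call was lost in them was not tested. Of the 10 genes, Y43C5B.3, which shares the orthology number of rpt-5, had 16, 4 and 17 counts with diquat and 17, 26 and 32 counts in control. Its log2 fold change was -1.04 (95% interval -2.06 to -0.02, edgeR unadjusted p = 0.0463, adjusted p = 0.782). In CPM its groups did not overlap, as in 10.7% of all tested genes, with 0.671 the highest diquat and 0.690 the lowest control value. F37A4.5, with the number of rpn-11, had 4, 1 and 7 counts with diquat and 7, 17 and 11 counts in control, below the count filter. The 6 sperm markers fell in the same libraries, with a list median of -1.35, and their part in these values was not tested.

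The factor that raises subunit transcription when the proteasome fails is SKN-1A, which PNG-1 and the protease DDI-1 process into its active form. skn-1 (chromosome IV, 5651039 to 5660384) was at 69.4, 66.9 and 73.1 FPKM in the diquat libraries and 59.9, 62.6 and 70.7 FPKM in the control libraries. The groups overlapped, with control 3 above diquat 1 and 2 in FPKM. Its log2 fold change was 0.09 (95% interval -0.14 to 0.33, edgeR adjusted p = 0.868) and 0.0083 with the length trend removed, over all skn-1 transcripts together, and its end overlaps that of csn-5 on the other strand. For ddi-1 the log2 difference was 0.16 (adjusted p = 0.820, edgeR), and for png-1 it was -0.09 (adjusted p = 0.916, edgeR). Of the 6 genes of this list 0 were called, with or without the block, and the list had a median of 0.09, or 0.0030 once the length trend was removed.

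The steps before and around the proteasome were read from 8 lists with 85 tested genes. Without the block 0 of the 85 were called higher and 0 lower. The polyubiquitin gene ubq-1 had 447.6 ± 35.4 FPKM with diquat and 426.8 ± 21.2 FPKM in control, and the ubiquitin-activating enzyme gene uba-1 had 128.1 ± 11.7 FPKM with diquat and 127.5 ± 9.63 FPKM in control (SD, n = 3 in each group). Medians were -0.07 for 22 ubiquitin, E1 and E2 genes, 0.05 for 17 genes of ubiquitin shuttles and CDC-48 with its cofactors, -0.02 for 5 genes of ER-associated degradation, 0.01 for 16 genes of cullin ligases and NEDD8, and -0.01 for 12 eIF3 subunits. The 5 tested partners of the proteasome outside the naming rule had a median of 0.03. With the length trend removed these medians were -0.03 for ubiquitin, E1 and E2 genes, 0.03 for shuttles and CDC-48, -0.0029 for ER-associated degradation, 0.08 for cullin ligases, 0.0068 for eIF3 and 0.01 for the partners.

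With the replicate number as a block, 7 of the 85 genes (8.24%) were called higher and 0 lower, where that fit called 4.51% of all tested genes higher. They were csn-2, csn-3 and csn-4 of the COP9 signalosome, cul-4, ddb-1, ubh-4 and eif-3.C. The COP9 signalosome takes NEDD8 off cullin ligases and is built like the proteasome lid. Of 8 csn genes listed for it, 6 were tested. All 6 had positive log2 fold changes without the block, with a median of 0.23, where 43 of all 85 genes of the lists were positive. Without the block 0 of the 6 were called. In the blocked fit 6 of 6 sperm, 3 of 6 body wall muscle, 2 of 6 intestine and 2 of 6 epidermis markers were called lower and 1 of 6 neuron markers higher, and their part in these calls was not tested.

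csn-2 (chromosome I, 6022660 to 6026877) had 20.3, 16.5 and 42.5 FPKM in the diquat libraries and 15.1, 13.98 and 23.6 FPKM in the control libraries. Library 3 was the highest in both groups, and control 3 lay above diquat 1 and 2. The log2 fold change of csn-2 was 0.53 without the block (edgeR adjusted p = 0.819; log2 fold change 0.07 without diquat 3) and 0.48 with it (edgeR adjusted p = 0.00108). With the block csn-3 was at 0.31 (edgeR adjusted p = 0.0310) and csn-4 at 0.30 (edgeR adjusted p = 0.0284) on the log2 scale. The other tested csn genes, csn-1, csn-5 and csn-6, had log2 fold changes of 0.17, 0.02 and 0.07 without the block and were called in neither fit.

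cul-4 (chromosome II, 7302101 to 7305758) and ddb-1 (chromosome IV, 12114810 to 12121165) encode the cullin and the adaptor of one ubiquitin ligase. cul-4 had 10.9, 9.41 and 17.1 FPKM in the diquat libraries and 7.23, 7.46 and 12.9 FPKM in the control libraries, and its blocked log2 fold change was 0.40 (edgeR adjusted p = 0.00391). Each diquat library exceeded the control library of the same number, and control 3 exceeded diquat 1 and 2. The blocked value of ddb-1 was 0.27 (edgeR adjusted p = 0.0270), as was that of eif-3.C, a subunit of the translation initiation factor eIF3 (edgeR adjusted p = 0.0126).

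ubh-4 (chromosome II, 8038271 to 8039597) encodes a deubiquitinase that binds the proteasome. It had 29.5, 24.6 and 32.4 FPKM in the diquat libraries and 21.1, 19.5 and 27.3 FPKM in the control libraries. In FPKM the groups overlapped, with control 3 above diquat 2. In CPM they did not overlap, at 31.4, 28.6 and 32.2 with diquat and 22.9, 23.2 and 28.5 in control. Groups that did not overlap in CPM were seen in 4 of the 85 genes of the lists and in 10.7% of all tested genes. Its log2 fold change was 0.31 in both fits (unadjusted p = 0.0419 and adjusted p = 0.766 in edgeR without the block, adjusted p = 0.0272 with it). usp-14, another deubiquitinase of the proteasome, differed by 0.03 on the log2 scale (adjusted p = 0.960, edgeR).

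The 7 blocked calls were absent without the block, and none was kept in every fit that left out a pair. Those fits have fewer libraries, and why calls were lost in them was not tested. The share of all genes that they called is not given here. Without pair 1 none of the 7 was called (csn-2 had an edgeR adjusted p of 0.0599), without pair 2 csn-2, csn-3 and cul-4 were, and without pair 3 cul-4, ddb-1, ubh-4 and eif-3.C were. Without pair 3, ubxn-6, a CDC-48 cofactor, was also called higher (log2 fold change 0.29, edgeR adjusted p = 0.0485). When the length trend was also removed from the blocked fit, which then called 4.7% of all tested genes higher and 5.21% lower, ddb-1 and eif-3.C lost the call (edgeR adjusted p = 0.147 and 0.0541). The ubiquitin ligase gene chn-1 gained one there (log2 fold change 0.29, edgeR adjusted p = 0.0166), which made 6 called genes. Proteasome subunits called in these fits numbered 0.

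**Figure D5:**
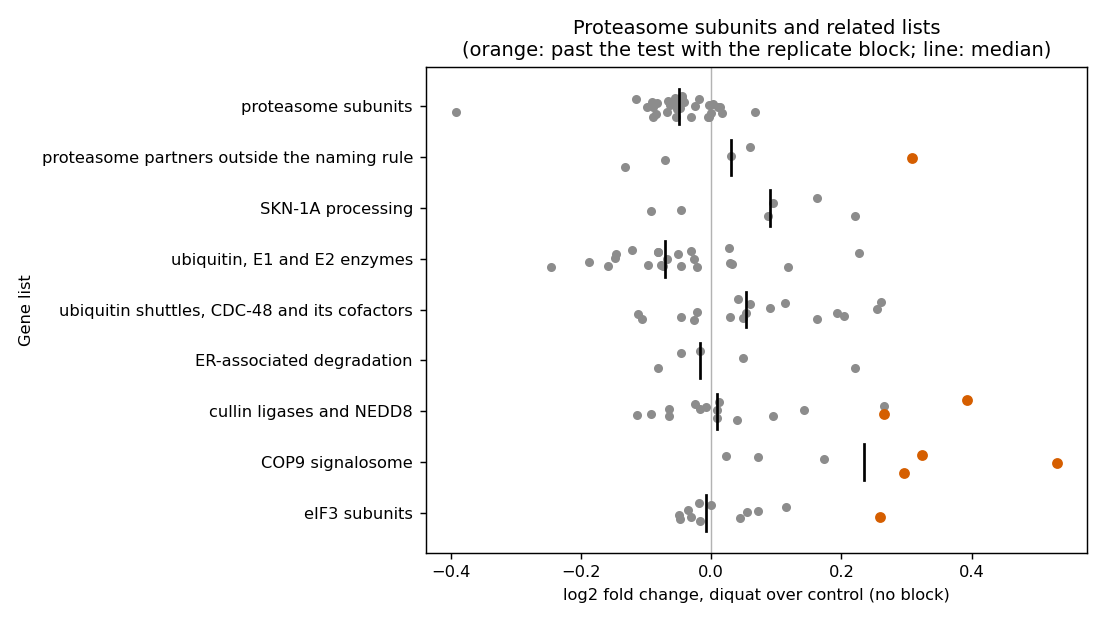
Log2 fold change, diquat over control, without the block, of each tested gene (points) of the proteasome subunits and 8 related lists, with the median as a line. Orange points are the 7 genes past the edgeR test with the replicate block, 3 of them in the COP9 signalosome; no proteasome subunit is among them.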

How the data were processed

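Poly(A)-selected RNA of whole worms was measured in 3 diquat and 3 control libraries. Per the submitters' processing notes the tools included RSEM, StringTie 1.3.1, HISAT2 and fastp 0.18.0, and the build was WBcel235; roles and order are not stated there. Per the file headers, the authors deposited a count per gene, treated here as an estimated count rounded by them, since in 94 cases the count is 0 while the FPKM is not. They also deposited FPKM per library, a log2 fold change of mean FPKM, and a p-value and FDR from a test that the sources used here do not name. For the members those p-values match the ones from DESeq2 here (0.506 for pas-1 in both). The deposited log2 fold changes are not the DESeq2 estimates (-0.05 deposited and -0.08 from DESeq2 for pas-1).

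The deposited counts were tested with edgeR 4.0.16 in R 4.3.3 (quasi-likelihood F-test, TMM scaling, default expression filter, robust dispersion, group as the only term), with Benjamini-Hochberg adjustment over all tested genes and a threshold of 0.05. Standard errors and 95% intervals are approximate, being derived from each F statistic. DESeq2 1.42.0 and limma 3.58.1 were alternatives. The length trend was removed with gene offsets from a loess (span 0.3) of each library's log2 CPM deviation (prior count 2) on exon length, from the Ensembl release 115 annotation of WBcel235, which matched 20105 identifiers. The tests were first tried on simulated data.

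Members, lists and tests were chosen with earlier results of these data known. Named genes were all members, skn-1, png-1, ddi-1 and every gene of the related lists past the threshold in the fit without or with the block; others, such as chn-1 and ubxn-6, were chosen after their values were seen. Replicate numbers 1 to 3 recur in both groups. For numbers 1, 2 and 3 the deviations from the group mean had correlations over genes of 0.155, 0.20 and 0.459; with each over 0.1, libraries of one number were treated as a pair. Deviations within a group sum to 0, so a deviation shared by the libraries numbered 3 favours positive correlations among numbers 1 and 2. Passing 0.1 therefore does not test the pairing of those numbers. Control 1 correlated more with diquat 2 (0.208), so the pairing of libraries 1 and 2 rests on the labels.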

Additional observations from a re-analysis of the deposited data

How the results depend on the processing

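Over 16 alternatives, and, added after seeing the data, with each pair left out of the blocked fit, 0 proteasome subunits were called higher and 0 lower. Of 544 member values under the 16 alternatives, 92 had another sign than the value reported, none past the threshold. The members' median log2 fold change was -0.05 with DESeq2 size factors, -0.0086 with library totals alone and -0.05 with the replicate block, and -0.10 to 0.0030 (without diquat 3) with 1 library left out. The replicate block changed no member's call.

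Over all genes, the calls higher numbered 0, against 2 without the count filter, 2 with DESeq2, 2 with the length trend removed, 1 on log2(FPKM + 0.1), 598 with the replicate block and 623 with block and length trend removed. The calls lower numbered 121, against 530 with the replicate block and 690 with block and length trend removed. Leaving out 1 library gave 0 to 1 higher and 27 (without diquat 1) to 116 lower, with 71 without control 1 and 38 without control 2. Among genes of the related lists the calls higher numbered 0, against 7 with the replicate block, 6 with block and length trend removed, and 0 to 5 in the blocked fit without 1 pair, where the calls lower numbered 0 to 1 (ubc-3, without pair 3). The cause of these differences was not tested.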
